A study of Mus musculus with 24 samples.

Results

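The paired-box genes Pax1, Pax9, Pax3 and Pax7 were followed through the open chromatin and H3K27ac peak lists of mouse jaw and limb cartilage. They are 4 of the 21631 protein-coding genes on the autosomes and X. An ATAC or H3K27ac peak was given to a gene when its midpoint lay inside the gene's span, and otherwise to the nearest protein-coding gene within 1 Mb (mouse build mm10). All embryos were wild type, of strain C57BL/6. ATAC-seq, in which a transposase cuts accessible DNA, was done at E14.5 on dissected bars of Meckel's cartilage (MC, 3 libraries) and on forelimb cartilage freed of its connective tissue (FL, 3 libraries). The same assay was done at E12.5 on whole mandibular processes (2 libraries), a tissue that precedes MC and also holds epithelium, nerve and muscle progenitors. H3K27ac, a histone mark of active promoters and enhancers, was measured by CUT&Tag at E14.5 in MC and FL, with 3 libraries each. The E12.5 samples are titled as MC at E12.5 and ATAC-seq, their protocol names whole mandibular processes, and their descriptions name E14.5 and Hi-C; the stage and assay of the titles were followed. Whether replicates came from different embryos or from pools is not stated, so the p-values measure only the spread between these libraries.

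Pax proteins are transcription factors that bind DNA through a paired domain. Pax1 and Pax9 are close relatives that act in the sclerotome, the embryonic source of vertebrae and ribs, and in the pharyngeal pouches. Pax9 is also needed in jaw mesenchyme for teeth and palate, and Pax1 for parts of the shoulder girdle. Pax3 and Pax7 are the other pair, with a homeodomain as well, and mark muscle progenitors, the dorsal neural tube and the neural crest, from which the jaw skeleton comes. Limb cartilage comes from lateral plate mesoderm instead.

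The sequences before the start sites show how differently the genes were covered by ATAC peaks at the point where transcription begins. The set of RefSeq start sites used here (GRCm38.p6, the mm10 assembly) held 3 of the 4 genes and had no entry for Pax3. Sites of Pax3 are therefore placed by the ends of its span, and it is left out of this comparison. The 250 bases before each start site are printed 5′ to 3′ on the gene's own strand. Capitals mark bases that lay under an ATAC peak in at least 4 of the 8 single-library lists. Pax1 (chr2:147364744-147364993, plus strand) had 139 such bases, nearest the start site, and no base was covered in more than 5 lists.
Pax1: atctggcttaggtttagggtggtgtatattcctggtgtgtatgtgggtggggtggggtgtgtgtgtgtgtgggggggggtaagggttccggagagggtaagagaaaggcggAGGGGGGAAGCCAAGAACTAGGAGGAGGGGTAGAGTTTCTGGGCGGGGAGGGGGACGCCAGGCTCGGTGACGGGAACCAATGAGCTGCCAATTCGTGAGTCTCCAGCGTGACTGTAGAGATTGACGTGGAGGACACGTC
Pax9 (chr12:56695221-56695470, plus strand) had all 250 bases in capitals, with 4 to 8 lists over each base.
Pax9: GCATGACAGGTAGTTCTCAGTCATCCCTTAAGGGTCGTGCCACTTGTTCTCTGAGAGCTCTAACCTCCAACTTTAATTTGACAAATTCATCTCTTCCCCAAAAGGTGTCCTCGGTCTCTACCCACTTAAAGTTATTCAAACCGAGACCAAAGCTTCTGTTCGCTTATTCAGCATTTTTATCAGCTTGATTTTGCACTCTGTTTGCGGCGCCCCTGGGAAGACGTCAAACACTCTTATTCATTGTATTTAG
Pax7 (chr4:139832969-139833218, minus strand) had none, and no base was covered in more than 2 lists.
Pax7: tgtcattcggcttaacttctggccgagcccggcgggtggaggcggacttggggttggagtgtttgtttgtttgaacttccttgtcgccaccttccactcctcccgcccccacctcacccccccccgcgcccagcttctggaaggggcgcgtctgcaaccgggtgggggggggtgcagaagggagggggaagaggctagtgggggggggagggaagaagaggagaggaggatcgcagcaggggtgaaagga
GC made up 58.8% of the Pax1 window, 43.6% of the Pax9 window and 65.2% of the Pax7 window, beside a median of 52.4% over 32619 promoters of the same length. The windows held 10, 7 and 13 CpG sites, beside a median of 6. The cores ACAAAG (SOX factors), TAATTA (homeodomain factors) and CAGCTG (an E-box) were searched on both strands and were found in none of the 3 windows. These cores occurred in 16.5%, 4.80% and 13.1% of all promoter windows.

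The measure for each gene was peak cover, the summed length in kb of its peaks in a list, scaled so that every list had the same total. The lists held 43205 to 54192 ATAC peaks in MC, 47152 to 70636 in FL, and 74706 and 70042 at E12.5. The lists of E12.5 replicates 1 and 2 covered 85.6 and 48.2 Mb, and only 37.7% and 42.1% of their peaks overlapped the other list, so each E12.5 value is given by library. The lists carry no read counts and sequencing depth is not known, and a gene listed at 0 kb has no peak past the authors' threshold. The 11 cartilage markers, among them Col2a1, Acan and Sox9, all had ATAC cover in every library, summing to 67.8 to 76.6 kb for MC, 58.4 to 69.9 kb for FL, and 85.7 and 52.3 kb at E12.5. In bulk tissue, fewer cells with an open site and weaker opening in each cell cannot be told apart.

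Over all genes, limma (log2 of scaled kb plus 0.5 kb, Benjamini-Hochberg adjustment) called 0 of 16174 genes at an adjusted p under 0.05 in each ATAC comparison (0.0%). Unadjusted p-values under 0.05 numbered 850 for MC against FL, 922 for MC against E12.5 and 1995 for FL against E12.5. The median log2 difference over all genes was 0.03 for MC minus FL, 0.23 for MC minus E12.5 and 0.25 for FL minus E12.5. The differences below are given without subtracting these medians. With the median subtracted, Pax1 MC minus E12.5 was 0.04, and FL minus E12.5 was -0.40 for Pax9 and -0.30 for Pax3.

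Every jaw cartilage library had less ATAC cover at Pax1 than every limb cartilage library, and the difference did not pass the test. In MC the scaled cover was 6.83, 5.75 and 5.68 kb in replicates 1 to 3. In FL it was 11.7, 9.52 and 7.99 kb. The lowest FL library thus lay above the highest MC library. The groups averaged 6.09 ± 0.643 kb for MC and 9.74 ± 1.87 kb for FL (SD, n = 3 each), a log2 difference of -0.62 (SE 0.53, limma adjusted p = 1.0). That fit took its spread from all 8 libraries, the E12.5 ones included. With MC and FL fitted alone the difference was again -0.62, with SE 0.23 (limma adjusted p = 0.327). With only peaks up to 100 kb from the gene counted, the difference was -0.15, and by number of peaks it was -0.37. All MC libraries lay below all FL libraries for 8.97% of genes, and Pax1 was the single gene of the 4 to do so. None of the 4 had MC libraries all above those of FL, as 9.18% of genes had. Against E12.5, none had MC libraries all below (3.93% of genes), FL libraries all above (16.5%) or FL libraries all below (9.76%). In the authors' combined lists, which pool the libraries of a tissue, Pax1 had 6 peaks and 3.39 kb for MC, and 12 peaks and 9.11 kb for FL. The scaled log2 ratio was -1.14, at percentile 5.46 of all genes, and 6.32% of genes were at least 2-fold lower in MC. Within 100 kb the Pax1 ratio was -0.55. That share includes genes at 0 kb in MC, among them Pax7, which had 1.05 kb in FL after scaling, from 1 peak. None of the 4 was at least 2-fold higher, as 5.54% of genes were.

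The E12.5 libraries disagreed on Pax1. Replicate 1 had 1.93 kb in 4 peaks and replicate 2 had 11.6 kb in 19 peaks, one below every MC library and the other near the highest FL library. The log2 difference of MC minus E12.5 was 0.27 (SE 0.60, limma adjusted p = 0.876) and that of FL minus E12.5 was 0.90 (SE 0.60, limma adjusted p = 0.466). Without E12.5 replicate 1 they were -0.89 and -0.26. Without E12.5 replicate 2 they were 1.43 and 2.06 and passed the test (limma adjusted p = 0.0264 and 0.00733), where the lone E12.5 library is assumed to vary like the others and 3753 and 6151 genes were called. The stage comparison of Pax1 therefore depends on which E12.5 library is used.

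**Figure D1:**
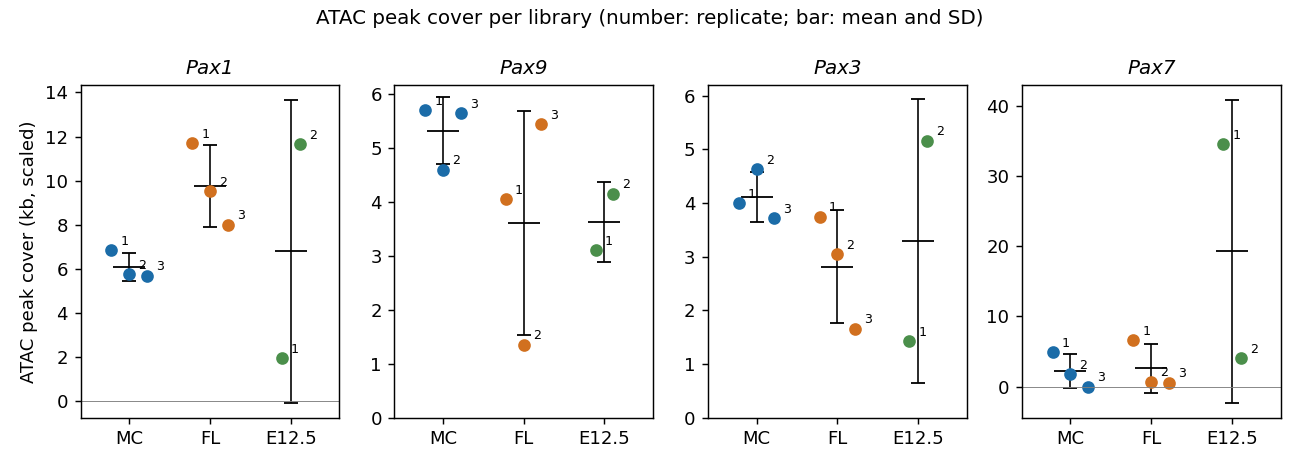
Scaled ATAC peak cover (kb, linear axis) of each gene in each library of MC, FL and E12.5 mandible, with the replicate number beside each point and a bar for the mean and SD. For Pax1 the FL points (7.99 to 11.7 kb) lie above the MC points (5.68 to 6.83 kb), and for Pax7 a single E12.5 library stands at 34.5 kb.

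Merging the peaks of the 8 libraries gave 157342 regions, of which 121 belonged to the 4 genes, namely 35 to Pax1, 9 to Pax9, 16 to Pax3 and 61 to Pax7. Pax1 lies on chromosome 2 (147361930-147375049) in a sparse stretch, with Nkx2-2 166 kb below and Foxa2 668 kb above, so it receives peaks from a wide area. Only 4 of its 35 regions lay inside its span, and 20 were called in a single list. Of the regions of all genes, 52.1% were called in a single list. Of the regions called in every FL list and no MC list, 2 belonged to Pax1, and such regions were 1.62% of all regions. The first (chr2:147429465-147430345) lay 54.9 kb above the span. It measured 0.346, 0.861 and 0.881 kb for FL replicates 1 to 3, and 0.579 kb in E12.5 replicate 2. The other (chr2:147560429-147561498) lay 186 kb above the span. It measured 1.03, 0.966 and 0.772 kb for FL and was absent from both E12.5 lists. Both were in the combined FL list and in no other combined ATAC list. When a peak had to cover 50% of a region, 1 Pax1 region was in this class. No region of the 4 genes was called in all MC and FL lists and neither E12.5 list, a class of 0.437% of all regions.

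The Pax1 start site itself (position 147364994) lay under a peak in MC replicates 2 and 3, FL replicate 2 and both E12.5 libraries. The merged region over the start site (chr2:147364762-147366648) was called in 7 of the 8 lists. It was missed in FL replicate 3, although the combined FL list had a peak over the start site. It covered 1.29, 0.789 and 1.41 kb for MC, 0.531 and 1.06 kb for FL replicates 1 and 2, and 0.763 and 1.34 kb at E12.5. Another region shared by 7 lists, missed in FL replicate 1, lay 258 kb above the span (chr2:147632349-147633640). The Pax1 region whose poorest rank was best (chr2:147584873-147585868, 210 kb above the span) was called in FL replicate 1 alone, within the best 25.4% of that list.

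**Figure D2:**
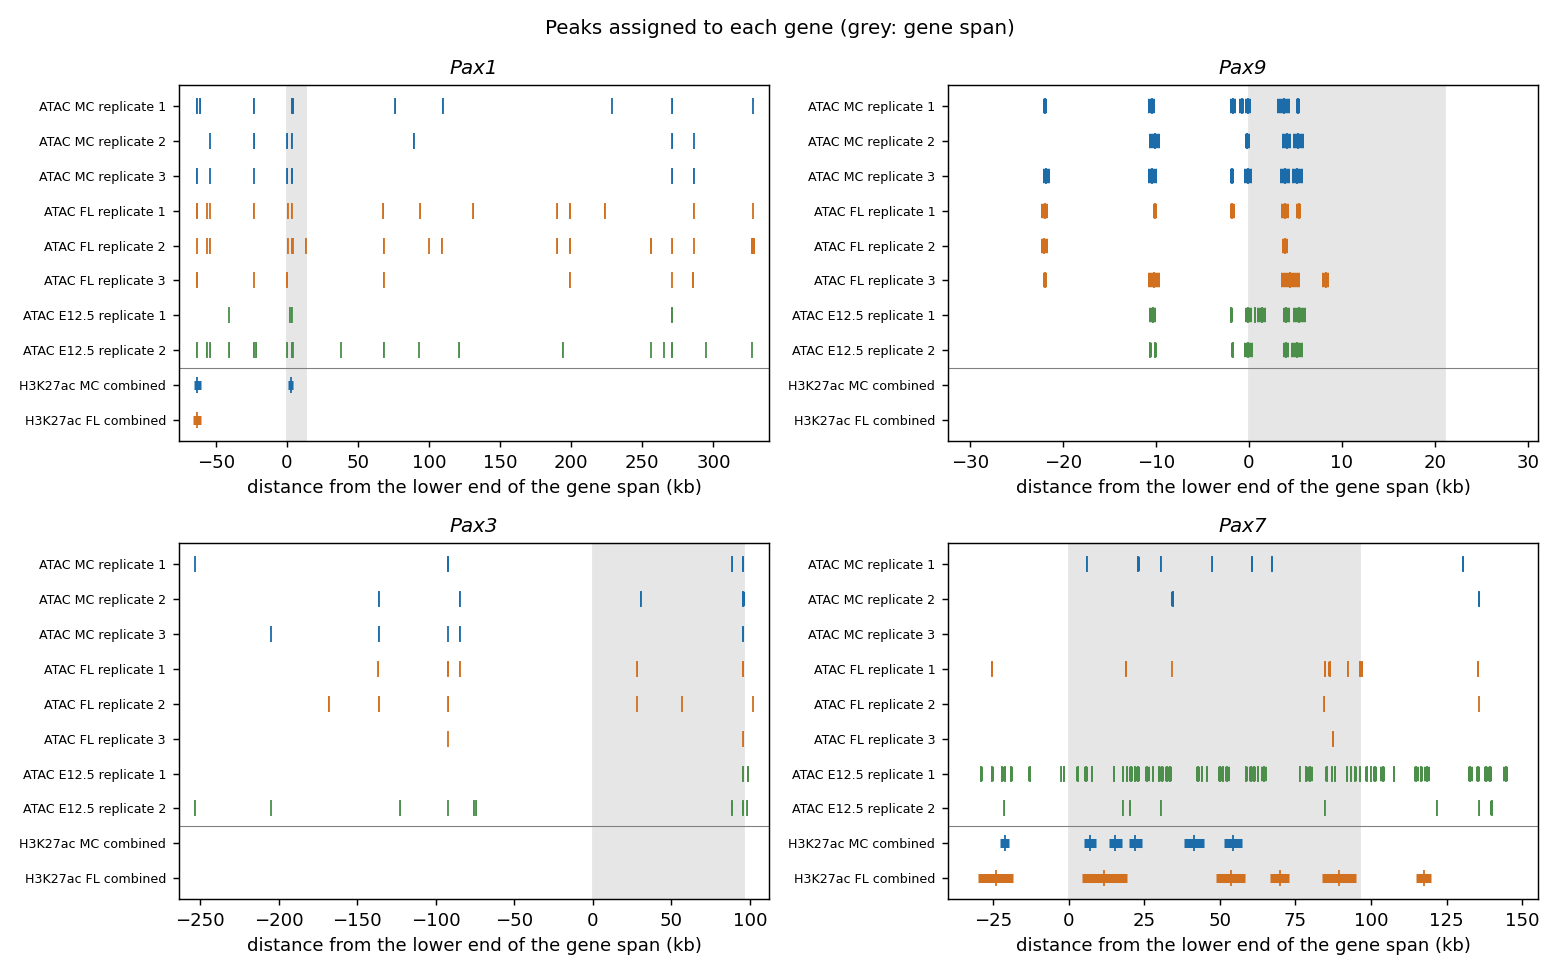
Peaks assigned to each gene, by distance in kb from the lower end of the gene span (grey), for the 8 ATAC libraries and the combined H3K27ac lists of MC and FL. The 9 regions of Pax9 sit close to the gene and carry no H3K27ac peak, while Pax7 has 57 ATAC peaks in E12.5 replicate 1 and broad H3K27ac peaks in both cartilages.

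Pax9 was open at its start site in every library of jaw, limb and early mandible, and a second site just upstream was called in the jaw libraries but not in limb. The gene lies on chromosome 12 (56691693-56712824), between Nkx2-9 and Slc25a21, whose span reaches into its upper end. Scaled cover was 5.70, 4.60 and 5.65 kb for MC, 4.05, 1.35 and 5.44 kb for FL, and 3.10 and 4.15 kb at E12.5. FL replicate 2 was the lowest of all, and FL replicate 3 lay inside the MC range. The means were 5.32 ± 0.623 kb for MC and 3.61 ± 2.08 kb for FL (SD, n = 3 each), a log2 difference of 0.65 (SE 0.45, limma adjusted p = 1.0). Without FL replicate 2 the difference was 0.16. MC libraries lay above both E12.5 libraries, as they did for 14.54% of genes, with a log2 difference of 0.50 (SE 0.50, limma adjusted p = 0.749) that was 0.04 without scaling. FL minus E12.5 was -0.15 (SE 0.50, limma adjusted p = 0.869). Combined lists gave 4.27 kb for MC, 3.66 kb for FL and 5.29 kb at E12.5 before scaling. Scaled to equal totals they gave 5.62, 4.20 and 3.87 kb, so E12.5 was the highest before scaling and the lowest after it.

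The Pax9 start site region (chr12:56694745-56697848) was the single region of the 4 genes called in all 8 lists, a class that held 10.0% of all regions. Its covered length was 1.89, 2.21 and 2.27 kb for MC, 1.43, 0.668 and 2.10 kb for FL, and 2.14 and 1.98 kb at E12.5. Its best peak ranked within the first 23.8% of each list. In E12.5 replicate 1 that was another peak of the region, and the peak over the start site ranked at 60.5%. A peak within 1 kb of the start site was present for 60.2% to 64.2% of 17274 genes in the single ATAC lists. The region called in every MC list and no FL list lay 3.82 kb upstream of the start site, across the lower end of the span (chr12:56691206-56692104). It covered 0.708, 0.591 and 0.790 kb for MC, and 0.744 and 0.882 kb at E12.5. It was thus shared by all 5 jaw libraries, and the combined MC and E12.5 lists held it while the combined FL list did not. Such regions were 0.367% of all regions, and this was 1 of 121 for the 4 genes. Its peaks ranked from 35.8% to 62.0% of their lists, and signal under the lists' lowest peak score of 200.0 would not be seen in FL.

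Other sites of Pax9 were shared between tissues. A region 14.0 kb upstream of the start site (chr12:56680827-56682195) was called in 7 lists and missed in FL replicate 2, with 0.834, 1.18 and 0.972 kb for MC and 0.436 and 1.24 kb for FL replicates 1 and 3. A region 25.7 kb upstream (chr12:56669347-56670281) was called in all FL lists, in 2 MC lists and in no E12.5 list. Within 100 kb of the span, 8 regions were given to Slc25a21, a mitochondrial carrier gene whose introns are known to hold Pax9 enhancers, and none of them was called in all lists of one cartilage and no list of the other. The nearest, 5.54 kb above the Pax9 span (chr12:56717746-56718988), was called in 2 MC, 2 FL and 2 E12.5 lists. On the other side, 2 regions given to Nkx2-9 were called in all 8 lists.

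Pax3 had 1.42 to 5.16 kb of scaled ATAC cover, and the region called in most libraries lay at the upper end of its span. The gene lies on chromosome 1 (78101267-78197136), and Epha4 lies 586 kb below it. Scaled cover was 4.00, 4.63 and 3.72 kb for MC, 3.74, 3.04 and 1.66 kb for FL, and 1.42 and 5.16 kb at E12.5. The highest FL library reached just into the MC range, and the E12.5 libraries lay on both sides of it. The log2 difference of MC minus FL was 0.53 (SE 0.45, limma adjusted p = 1.0), and 0.25 without FL replicate 3. MC minus E12.5 was 0.48 (SE 0.51, limma adjusted p = 0.758), and FL minus E12.5 was -0.05 (SE 0.51, limma adjusted p = 0.959). Without E12.5 replicate 1 the former was -0.30, and without replicate 2 it was 1.26. Without scaling it was 0.06. Combined lists gave 2.74 kb for MC, 2.60 kb for FL and 1.75 kb at E12.5. The scaled log2 ratio of MC to E12.5 was 1.21, and 12.1% of genes were at least 2-fold higher in MC in that comparison. Of the 4 genes, Pax7 alone was at least 2-fold lower in MC than at E12.5, as 14.7% of genes were. It was listed at 0 kb in MC and had 16.0 kb at E12.5 after scaling.

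The region at the upper end of the Pax3 span (chr1:78196024-78198101) was called in 7 of 8 lists and missed in FL replicate 2. It covered 1.16, 2.08 and 1.02 kb for MC, 0.836 and 1.06 kb for FL replicates 1 and 3, and 0.844 and 0.938 kb at E12.5. A neighbouring region (chr1:78199067-78200621) was called in both E12.5 lists and no E14.5 list, a class of 0.975% of all regions, although its poorest rank was 99.2%, at the very threshold. No Pax3 region divided MC from FL. In the flank above, a region given to Gm2102 (chr1:78215563-78218837, 20.1 kb above the Pax3 span) was called in all 8 lists. Another one given to Gm2102 (chr1:78223296-78224097, 26.6 kb above) was called in every FL list and in no other list. The Pax3 region whose poorest rank was best (chr1:77978421-77979047, 123 kb below the span) was called in E12.5 replicate 2 alone.

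Pax7 had under 2 kb of ATAC cover in 4 of the 6 cartilage libraries, and its largest cover was in a single E12.5 library. Scaled cover was 4.91, 1.81 and 0 kb for MC, 6.64, 0.724 and 0.543 kb for FL, and 34.5 and 4.05 kb at E12.5. Within each cartilage replicate 1 was the highest, and the groups overlapped. MC minus FL was -0.18 (SE 1.07, limma adjusted p = 1.0), and it changed sign without MC replicate 3 (0.76) or FL replicate 1 (0.70). MC minus E12.5 was -2.78 (SE 1.19, limma adjusted p = 0.712), and FL minus E12.5 was -2.59 (SE 1.19, limma adjusted p = 0.409). Those differences stood at percentiles 0.0185 and 0.167 of all genes, the low end of the distribution. Without E12.5 replicate 1 they were -1.31 and -1.12 (limma adjusted p = 0.896 and 1.0), and replicate 2 lay inside the range of both cartilages. In a window of 100 kb around the gene MC minus E12.5 was -1.71. The combined ATAC lists held no Pax7 peak in MC, 1 peak of 0.912 kb for FL and 20 peaks of 21.9 kb at E12.5. The scaled log2 ratio of FL to E12.5 was -3.42, and 17.5% of genes were at least 2-fold lower in FL. None of the 4 was at least 2-fold higher in FL, as 16.4% of genes were.

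E12.5 replicate 1 listed 57 Pax7 peaks over 58.1 kb, 36 of them inside the span of the gene (chromosome 4, 139737059-139833530). Of the 61 Pax7 regions, 39 were called in that list alone, or 63.9%, beside 20.0% of all regions. The dense peaks were not limited to Pax7. Within 500 kb on either side of the span this list had 285 peaks covering 325 kb, or 0.380% of its whole cover, while the other 7 libraries had 25 to 51 peaks there and 0.0484% to 0.0789% of their cover. The neighbour Tas1r2, a taste receptor gene, showed the same split, with 13.9 kb in E12.5 replicate 1 and 0 kb in replicate 2. Klhdc7a on the other side had 7.69 and 0.736 kb. Around the other genes E12.5 replicate 1 instead had the fewest peaks of the 8, with 11, 19 and 7 peaks within 500 kb of Pax1, Pax9 and Pax3, and E12.5 replicate 2 had 34, 38 and 29. Why this library stands apart was not tested.

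**Figure D3:**
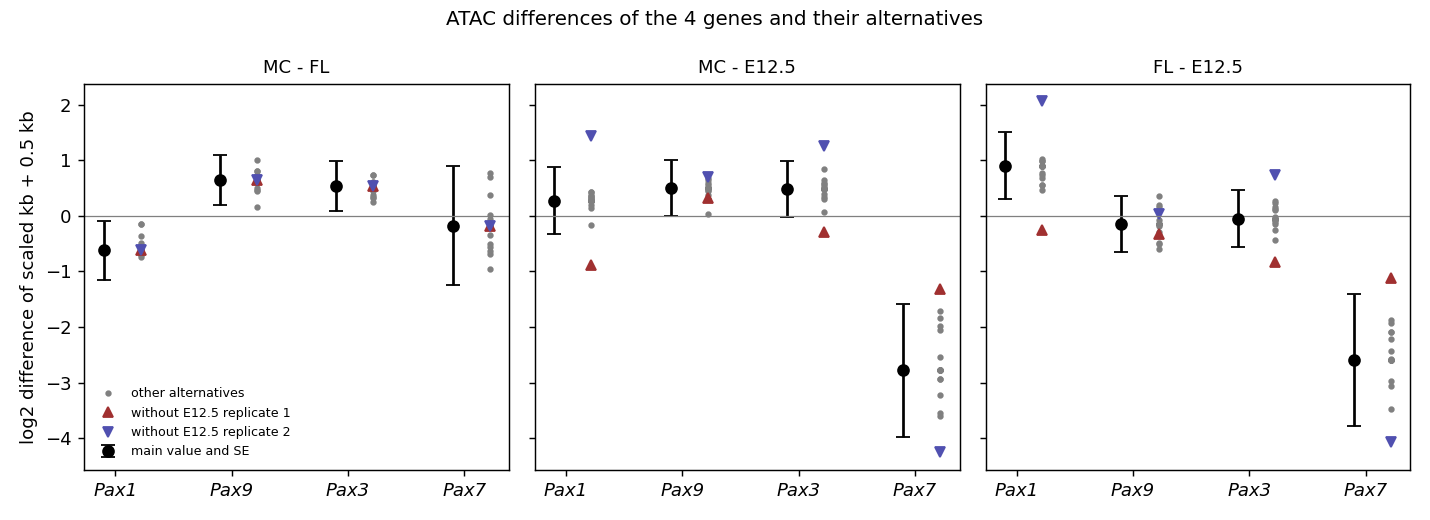
Log2 differences of scaled ATAC cover for the 4 genes in the 3 comparisons (black, with SE), beside every alternative processing (grey) and the fits without E12.5 replicate 1 (triangles up) or 2 (triangles down). In MC minus E12.5 the values run from -0.89 to 1.43 for Pax1 and from -4.25 to -1.31 for Pax7, and for Pax9 MC minus FL from 0.16 to 1.0.

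Both E12.5 lists called 4 Pax7 regions that no E14.5 list held. Of the 121 regions of the 4 genes 6 were of this class, beside 0.975% of all regions. E12.5 replicate 1 called 55 of the 61 Pax7 regions. With peaks that dense, overlap with a peak of replicate 2 is no independent agreement. With the same number of peaks taken from each list, 1 of the regions of the 4 genes was of this class. The 4 Pax7 regions lay 21.1 kb below, inside (2 regions) and 43.0 kb above the span. The last (chr4:139875548-139877540) had the best poorest rank of the 4, 38.6%, with 1.69 and 1.06 kb in the E12.5 libraries. One of those inside the gene (chr4:139754696-139755342) had a poorest rank of 98.9%, at the threshold. The region 21.1 kb below the span (chr4:139715383-139716456) covered 1.07 and 0.369 kb, and combined H3K27ac peaks of both E14.5 cartilages overlapped it. The Pax7 start site (position 139832968) had a peak within 1 kb in FL replicate 1 and E12.5 replicate 1 and in none of the other lists. The Pax7 region whose poorest rank was best (chr4:139815951-139817956, 16.0 kb into the gene) was called in E12.5 replicate 1 alone, within the best 5.71% of that list.

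H3K27ac followed another order than open chromatin. In the combined lists Pax7, the least open gene in cartilage, had the most H3K27ac. Pax9, open in every library, had no peak assigned to it. Pax7 held 6 peaks of 27.9 kb for MC and 6 peaks of 59.0 kb for FL, a scaled log2 ratio of -0.90 (percentile 16.6), and 15.2% of genes were at least 2-fold lower and 18.6% at least 2-fold higher in MC. Pax1 held 2 peaks of 8.85 kb for MC and 1 peak of 5.59 kb for FL, a log2 ratio of 0.72 (percentile 77.5). Pax9 and Pax3 were listed at 0 in both tissues, counting only the peaks assigned to them. A scaled mean of at least 1 kb over both lists was reached by 14352 of the 21631 genes, so little or no cover was not rare. Of the Pax9 neighbours, Nkx2-9 was also at 0. Slc25a21, whose introns are known to hold Pax9 enhancers, had 4.47 kb for MC and 4.78 kb for FL. H3K27ac overlapped 11 Pax7 regions in MC and 24 in FL of 61, and 5 and 2 Pax1 regions of 35, beside 55.5% and 55.4% of the regions of all genes. These lists are pooled and carry no error.

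**Figure D4:**
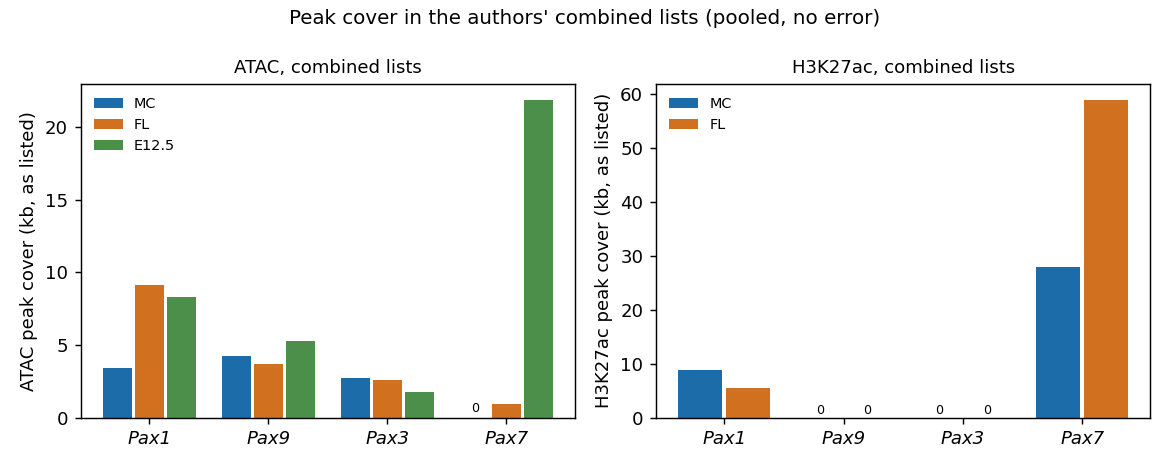
Peak cover in kb as listed in the authors' combined ATAC lists (left) and combined H3K27ac lists (right), pooled and without error bars. Pax7 has 0 kb of ATAC cover in MC and 0.912 kb for FL but 27.9 and 59.0 kb of H3K27ac cover. Pax9 has ATAC cover in all 3 lists and no H3K27ac peak assigned to it.

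The Pax7 H3K27ac peaks were 5.06 to 14.8 kb long in FL and had higher listed signals there than in MC, on scales whose normalization is not given in the sources used here. In FL the largest was 14.8 kb long (chr4:139741418-139756213, inside the gene) with a total signal of 82817, and the strongest (chr4:139707062-139718686, 24.2 kb below the span) had 88619 and ranked within the first 23.1% of the list. Another FL peak (chr4:139820869-139832025) lay just inside the start site, with a signal of 63450, and ATAC peaks of all 3 FL libraries, both E12.5 libraries and no MC library fell inside it. The peak of FL replicate 3 there ranked at 99.6% of its list, at the threshold, and lay in another region than those of FL replicates 1 and 2. In MC the 6 peaks had signals of 18752 to 26865 and were 2.88 to 6.60 kb long, and 4 of them overlapped an FL peak. The lowest total signal in the list was 16925 in MC and 25799 in FL, and 5 of the 6 MC peaks had signals under the FL minimum.

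The Pax1 start site carried an H3K27ac peak in MC (chr2:147362647-147366473, signal 18755) and none in FL, but this signal too was under the lowest one listed in FL. Start sites with a combined H3K27ac peak within 1 kb made up 60.5% of genes in MC and 55.4% in FL. The other Pax1 peak, about 63 kb below the span, was listed in both tissues, with 24391 in MC (chr2:147296512-147301532) and 28417 in FL (chr2:147295832-147301421). The MC signal of this peak was also under the FL minimum. ATAC peaks of 2 MC and 3 FL libraries fell inside it. It was the Pax1 site where both marks met in both cartilages.

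In the single-library H3K27ac lists Pax1 again had more cover in MC, but from peaks that did not overlap those of the combined lists. Scaled cover was 24.9, 22.7 and 14.7 kb for MC and 11.3, 9.01 and 7.07 kb for FL, so every MC library lay above every FL library, as for 6.49% of genes. None of the 4 had all MC libraries below FL, as 5.87% of genes had. The means of 20.8 ± 5.37 kb and 9.13 ± 2.13 kb (SD, n = 3 each) differed by 1.13 on the log2 scale (SE 0.39), and the limma adjusted p over 8641 genes was 0.731. The difference was 0.74 with peaks up to 100 kb from the gene and 0.68 in a window of 100 kb. No gene was called in this comparison (0.0%) and 575 had an unadjusted p under 0.05. With trended and robust spread the limma adjusted p of Pax1 was 0.1. None of the 28, 27 and 22 Pax1 peaks in the MC libraries overlapped the combined MC list, and 1, 0 and 0 overlapped an ATAC peak of MC. None of the 15, 12 and 10 Pax1 peaks in the FL libraries overlapped the combined FL list. Over all genes 10.3% to 12.6% of the single-library peaks overlapped the combined list of their tissue, and 7.75% to 10.4% of start sites had such a peak within 1 kb. The highest total signal in these lists was 3459, below the lowest of the combined lists, and how the lists were thresholded is not given in the sources used here.

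For the other genes the single H3K27ac libraries did not separate the tissues. Pax9 had 2.24, 1.67 and 2.39 kb for MC and 0.792, 1.70 and 1.77 kb for FL, a log2 difference of 0.47 (SE 0.38, limma adjusted p = 0.835). Pax3 had 14.9, 9.79 and 9.38 kb for MC and 11.01, 9.83 and 15.6 kb for FL, a difference of -0.10 (SE 0.38, limma adjusted p = 0.964). Pax7 had 3.41, 3.50 and 2.26 kb for MC and 1.79, 0.509 and 5.39 kb for FL, a difference of 0.55 (SE 0.63, limma adjusted p = 0.878). Pax7 thus had a higher mean in MC in these lists and more cover in FL in the combined ones.

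**Figure D5:**
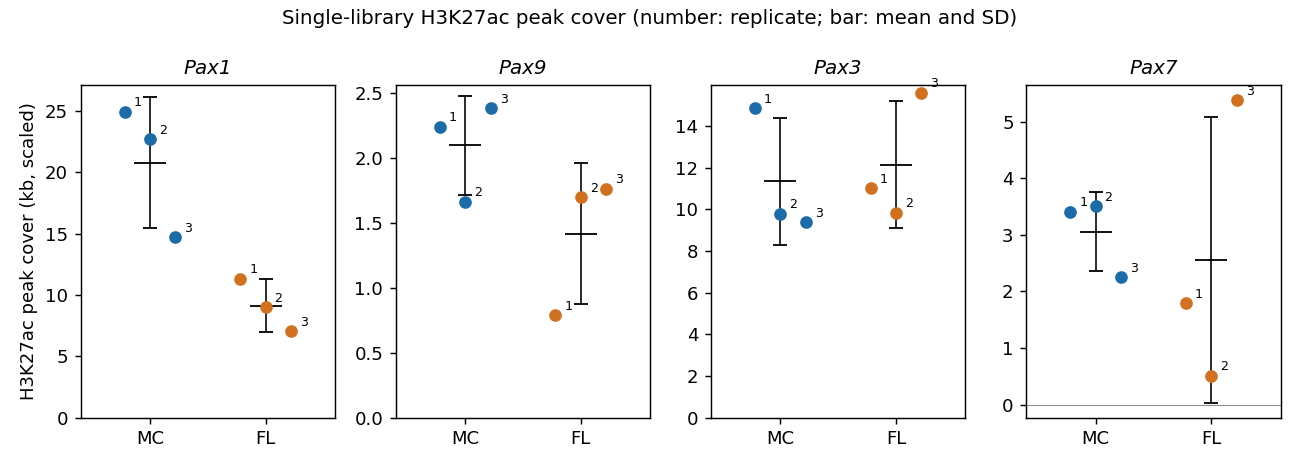
Scaled H3K27ac peak cover (kb, linear axis) of each gene in each single MC and FL library, with replicate numbers and a bar for the mean and SD. Pax1 is the one gene whose MC points (14.7 to 24.9 kb) all lie above its FL points (7.07 to 11.3 kb).

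Cover was also read for the genes next to the 4, and whether it is tied to that of a member was not tested. Foxa2, an endoderm and floor plate regulator and the nearest gene above Pax1, had 5.13, 6.52 and 7.19 kb of ATAC cover in MC and 13.7, 10.2 and 13.1 kb for FL, and like Pax1 its MC libraries all lay below FL (log2 difference -0.92, SE 0.49, limma adjusted p = 1.0). Epha4, an ephrin receptor below Pax3, had 6.08, 4.35 and 5.57 kb for MC and 8.93, 8.85 and 6.29 kb for FL, with MC again below FL (-0.54, SE 0.52, limma adjusted p = 1.0). Pax3 itself instead had the higher mean in MC (log2 difference 0.53). Nkx2-2, Nkx2-9, Slc25a21, Gm2102, Tas1r2 and Klhdc7a overlapped between the cartilages. MC libraries all lay below FL for 8.97% of all genes.

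Genes whose cover moved most like a member's over the 8 libraries were found by the root mean square difference of centred log2 cover. For Pax1 these were Ppp2r2b (0.10), Epha4 (0.12) and Plxna2 (0.14), small beside Pax1's own spread of 0.70. For Pax9 they were Thap4 (0.12), Hspa14 (0.19) and Mob1a (0.19), with an own spread of 0.54. For Pax3 they were Tex13c3 (0.15), Alkal1 (0.16) and Bloc1s2 (0.17), with an own spread of 0.53. For Pax7 they were Gm4791 (0.69), Eef1d (0.77) and Lhx3 (0.79), less close beside an own spread of 1.80, which includes the 34.5 kb of E12.5 replicate 1. The libraries share their list lengths and thresholds, and likeness of cover is a description.

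Genes that work with the 4 were read from lists chosen by function, and none was called in any comparison. Of 4 other Pax genes past the cover filter, 2 were higher and 2 lower in MC than in FL, and all 4 had a lower fitted mean in MC than at E12.5 (median -0.38). Pax2 of the kidney and Pax5 of B cells had the largest MC to FL differences, 0.81 and 0.62 on the log2 scale. Pax2 had 3.597 to 6.35 kb in MC, and 15.4 and 2.26 kb in E12.5 replicates 1 and 2. Pax5 had 4.11 to 7.90 kb in MC, and 14.7 and 2.93 kb at E12.5, so for both genes every MC library lay above E12.5 replicate 2 and below replicate 1. Of 12 sclerotome partners and targets of Pax1 and Pax9, 5 were higher and 7 lower in MC, with a median of -0.30 beside 0.03 for all genes. Tbx18, which keeps the compartments of each somite apart, had 2.13, 1.64 and 3.36 kb for MC and 11.6, 9.52 and 10.6 kb for FL (log2 difference -1.99, SE 0.53, limma adjusted p = 0.824). Scx, a tendon regulator, was listed at 0 in all MC libraries and in FL replicate 1, and had 0.522 and 3.61 kb for FL replicates 2 and 3. In this list the MC libraries were all below FL for 4 genes and all above for 2, beside 8.97% and 9.18% of all genes.

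Of 14 partners of Pax9 in teeth, palate and pouches, 10 were higher and 4 lower in MC than in FL, with a median log2 difference of 0.41. MC libraries lay above all FL libraries for 4 of them and below for 2, beside 9.18% and 8.97% of all genes. Lhx6, a jaw mesenchyme homeobox gene, had 5.83, 6.22 and 7.39 kb for MC and 2.04, 2.19 and 3.37 kb for FL, a log2 difference of 1.22 (SE 0.33, limma adjusted p = 0.824). Tbx1, a pharyngeal regulator, had 3.99, 8.76 and 7.89 kb for MC and 1.55, 2.99 and 4.56 kb for FL, and overlapped. Of 12 neural crest genes tied to Pax3 and Pax7, 4 were higher and 8 lower in MC (median -0.39). For 0 of these 12 genes MC libraries lay above all FL libraries, and for 3 below, beside the same shares of all genes. Sox10, a marker of crest and glia, ranged from 0.451 to 12.4 kb within MC and from 0 to 0.785 kb for FL. Tfap2b, a crest regulator, had 0.652 to 2.70 kb for MC and 1.58 to 8.10 kb for FL.

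Of 14 myogenic genes downstream of or beside Pax3 and Pax7, 3 were higher and 11 lower in MC than in FL (median -0.30). MC libraries lay above all FL libraries for 2 of them and below for 0, beside 9.18% and 8.97% of all genes. The 2 with the largest differences had more cover in MC. Cdh15, a muscle cadherin, had 4.28, 3.93 and 4.51 kb for MC and 1.95, 1.66 and 0 kb for FL. Myod1, the muscle determination factor, had 2.73, 1.92 and 3.20 kb for MC and 0, 0.602 and 0.929 kb for FL (log2 difference 1.73, SE 0.48, limma adjusted p = 0.847). The 15 skeletal muscle markers summed to 15.1 to 22.0 kb for MC, 15.3 to 22.4 kb for FL, and 31.7 and 18.6 kb at E12.5, and 2 to 6 of them were at 0 in each E14.5 library. Their summed level was thus highest in E12.5 replicate 1, the library with the high Pax7 cover, although Myf5, Myh8, Actc1, Ttn and Neb were at 0 there. The cartilage sum (85.7 kb) and the neuron and Schwann cell sum (27.5 kb) were also the highest of the 8 libraries there. The 10 neuron and Schwann cell markers summed to 18.3 to 26.98 kb for MC, 18.9 to 21.7 kb for FL, and 27.5 and 26.9 kb at E12.5. The 10 epithelial markers summed to 16.8 to 26.9 kb, 16.8 to 22.0 kb, and 26.8 and 27.03 kb. Endothelial markers summed to 45.6 to 48.9 kb, 48.2 to 54.3 kb, and 33.3 and 48.3 kb. Melanocyte markers summed to 8.06 to 14.1 kb, 11.1 to 22.7 kb, and 4.13 and 15.8 kb, with Tyr at 0 in all 8 libraries. The part of these cells in the values of the 4 genes was not tested.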

How the data were processed

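ATAC-seq (8 libraries) and H3K27ac CUT&Tag (6 libraries) peak lists were used; Hi-C and 4C samples were left aside. The submitters' processing notes name mm10, Bowtie2, SAMtools, Trim Galore, and the peak callers Genrich and SEACR; versions and thresholds are not given in the sources used here. The deposited ATAC lists hold for each peak a score and the caller's −log10 p-value (not used), and the deposited H3K27ac lists a total signal, used only to rank or describe peaks within a list. Combined lists are pooled by the authors, so their values have no test.

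Cover per gene in kb was scaled to equal list totals. Then log2(kb + 0.5) was fitted with limma 3.58.1 (R 4.3.3, statmod 1.5.0), all 8 ATAC lists in 1 fit. Genes needed a mean of at least 0.3 kb (ATAC) or 1 kb (H3K27ac). In simulated data, a planted log2 difference of 1.5 was called for 18% of genes in ATAC MC minus FL. It was called for 3% in both E12.5 comparisons and 1% for H3K27ac. For a planted 3 the shares were 69%, 56%, 57% and 53%. Smaller differences could thus mostly not be called. Combined log2 ratios used a pseudocount of 0.5 kb (ATAC) or 1 kb (H3K27ac). Regions are merged peaks, called in a list by 1 bp of overlap. Gene spans came from RefSeq. Named genes are the 4, the 3 most alike to each, their neighbours, and per list the 2 of largest MC to FL difference; named regions are those dividing MC from FL, those in every list, and the one of best poorest rank per gene, and others were picked after their values were seen. The genes and lists were chosen with earlier results of these data known. Python 3.11.15, numpy 2.4.6, pandas 2.3.3 and matplotlib 3.10.9 were used.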

Additional observations from a re-analysis of the deposited data

How the results depend on the processing

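Of 292 alternative values for the members' log2 differences, 268 kept their direction and their side of the threshold. Part of this count was fixed in advance. Dropping the cover filter, changing the spread or leaving out a library of the third group cannot move a difference. No member passed in the main fit, so few values could change side. The count therefore does not measure how stable the differences are. Pax7 MC minus FL was 0.37 in a window of 100 kb and 0.02 with the same number of peaks per list. Pax1 MC minus E12.5 was -0.16 without scaling. FL minus E12.5 was 0.20 and 0.15 for Pax9, and 0.27 and 0.10 for Pax3, with the window and with equal peak numbers, and 0.16 for Pax3 by number of peaks. Pax9 H3K27ac was -0.14 in the window. The cause of these turns was not tested. Leaving out single libraries gave ranges of -0.96 to 0.76 (Pax7 MC minus FL), -0.89 to 1.43 (Pax1 MC minus E12.5), -0.30 to 1.26 (Pax3 MC minus E12.5), -0.26 to 2.06 (Pax1 FL minus E12.5), -0.49 to 0.35 (Pax9 FL minus E12.5), -0.83 to 0.73 (Pax3 FL minus E12.5), and for H3K27ac -0.30 to 0.09 (Pax3) and -0.07 to 1.21 (Pax7).

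With a pseudocount of 0.1 kb, 20, 11 and 6 genes were called for ATAC in MC minus FL, MC minus E12.5 and FL minus E12.5, and 4 for H3K27ac; MC and FL fitted alone gave 8. Leaving out libraries gave 0 to 8, 0 to 3753 and 0 to 6151 ATAC calls. Of the 4 genes, Pax1 alone passed the threshold in any alternative, without E12.5 replicate 2. The main fit did not pair libraries by replicate number. Between MC and FL the ATAC deviations correlated at 0.043, 0.052 and 0.048 for same-numbered libraries. For differently numbered ones the correlations ran from -0.047 to -0.004. All were weak, and they do not settle whether the numbers mark pairs. With the replicate block no gene was called, and Pax3 FL minus E12.5 was 0.12. The trended and robust spread was chosen after seeing the data and changed no call.

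When a peak had to cover 50% of a region, FL-only regions of the 4 genes fell to 1 and regions in every list to 0. Equal peak numbers gave 1 E12.5-only region. Leaving out libraries gave 2 to 6 (without FL replicate 3) FL-only regions, 1 to 3 in every list and 6 to 48 E12.5-only regions (17 without E12.5 replicate 1, 48 without replicate 2). Combined MC to FL ratios were -0.55 for Pax1 within 100 kb and in the window, 1.46 and 0.81 for Pax9 and Pax3 with the better-scored 50% of the peaks, and -0.21 for Pax3 in the window. MC to E12.5 for Pax9 was 1.18 in the window and -0.28 without scaling, and FL to E12.5 was -0.79 with the better-scored 50% and 0.86 in the window. Unknown depth limits every value: absence from a list is not absence of signal.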
